A study of Mus musculus with 29 samples.

Results

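The genes described here are 38 mouse imprinted genes, read array by array across 9 groups of pluripotent and endodermal cell cultures. The members are a list of genes known to be imprinted in the mouse. The rule uses no measured value, but the list was chosen with earlier results of these data known. A probe could be matched through its accession for 36 of the 38. Of these, 33 were tested among 16342 genes, because at least 1 group had the probe well above background on each of its arrays; H19 and Rian, which had no matched probe, were not analysed here. Rtl1, Nnat and Nap1l5 were above background on 1, 9 and 4 of 29 arrays by the probe kept for each and are given by their arrays above background only.

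The arrays compare steps in the conversion of naive stem cells into an expandable endoderm culture with related states. ESC are embryonic stem cells of the HRHnG double reporter line in 2i (a pair of kinase inhibitors) with LIF. Diff are those cells after 7 to 8 days in Activin, CHIRON and LIF. Mid and Late are the nEnd endoderm cultures passaged from Diff, at passages 7 to 10 and 14 to 15. XEN is an established extraembryonic endoderm line of its own origin. EpiSC are epiblast stem cells derived from stem cells and kept as a stable culture, and ADE are EpiSC differentiated for 4 days towards anterior definitive endoderm. Both are labelled HRHNG, taken here as HRHnG. The groups 2iL and NACL come from 3 stem cell lines, HVMC, E14 and E14-NanogGFP, passaged 3 times or more in 2i/LIF (2iL) or in N2B27 with Activin, CHIRON and LIF (NACL). All lines are labelled male. There are 4 arrays of ADE, 4 of NACL and 3 of every other group. The nEnd replicates are separate differentiations, while what separates the other replicates is not stated, so p-values measure only the spread between these samples. HRHnG was the only line taken through Diff, Mid, Late, EpiSC and ADE, so a difference of 2iL or NACL from those groups holds line and state together. Bulk RNA was measured, so fewer cells expressing a gene and less RNA per cell cannot be told apart, and the arrays do not separate the maternal from the paternal transcript. Members are called maternally or paternally expressed from their known imprint, which was not measured in these cells.

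Imprinted genes are transcribed mainly from the copy inherited from 1 parent, and most lie in clusters governed by a control region that carries DNA methylation on only the maternal or only the paternal copy. That methylation is laid down in the germ line and kept through the early embryo by factors such as ZFP57, TRIM28, DNMT1 and UHRF1. Imprinted genes are widely known to lose or gain expression when stem cells are kept in culture, and many of them act on growth of the embryo and placenta or in extraembryonic tissue.

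Levels are log2 signals relative to the 75th percentile of the same array, so 0 is the level that 75% of probes do not exceed, and a difference between groups is given in log2 units ± its standard error (SE). A change was called at a limma adjusted p under 0.05 over all 16342 genes. The share of probes well above background ran from 49.2% to 79.7% per array, and the dimmest probe well above background lay between -5.40 and -3.71, so levels below about that range carry no order. Replicate arrays correlated at 0.956 or more within each group. ESC, Diff, Mid, Late and XEN form 1 array set and 2iL, EpiSC, ADE and NACL another, with no slide, scan day or software version in common. The third array of ESC, Diff, Mid and XEN was read on a second scan day. The labelled cell types were checked against their markers: the 7 naive markers were above background on all ESC, 2iL, NACL and Diff arrays, the 8 extraembryonic endoderm markers on all Diff, Mid, Late, XEN and ADE arrays, the 6 primed epiblast markers on all EpiSC, ADE and NACL arrays, and the 7 definitive endoderm markers on all ADE and EpiSC arrays. These lists thus overlap between groups: summed primed marker levels were 8.67 to 9.19 in ADE and 6.76 to 6.97 in EpiSC, and summed definitive endoderm levels 8.24 to 8.78 and 3.44 to 3.59.

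**Figure D1:**
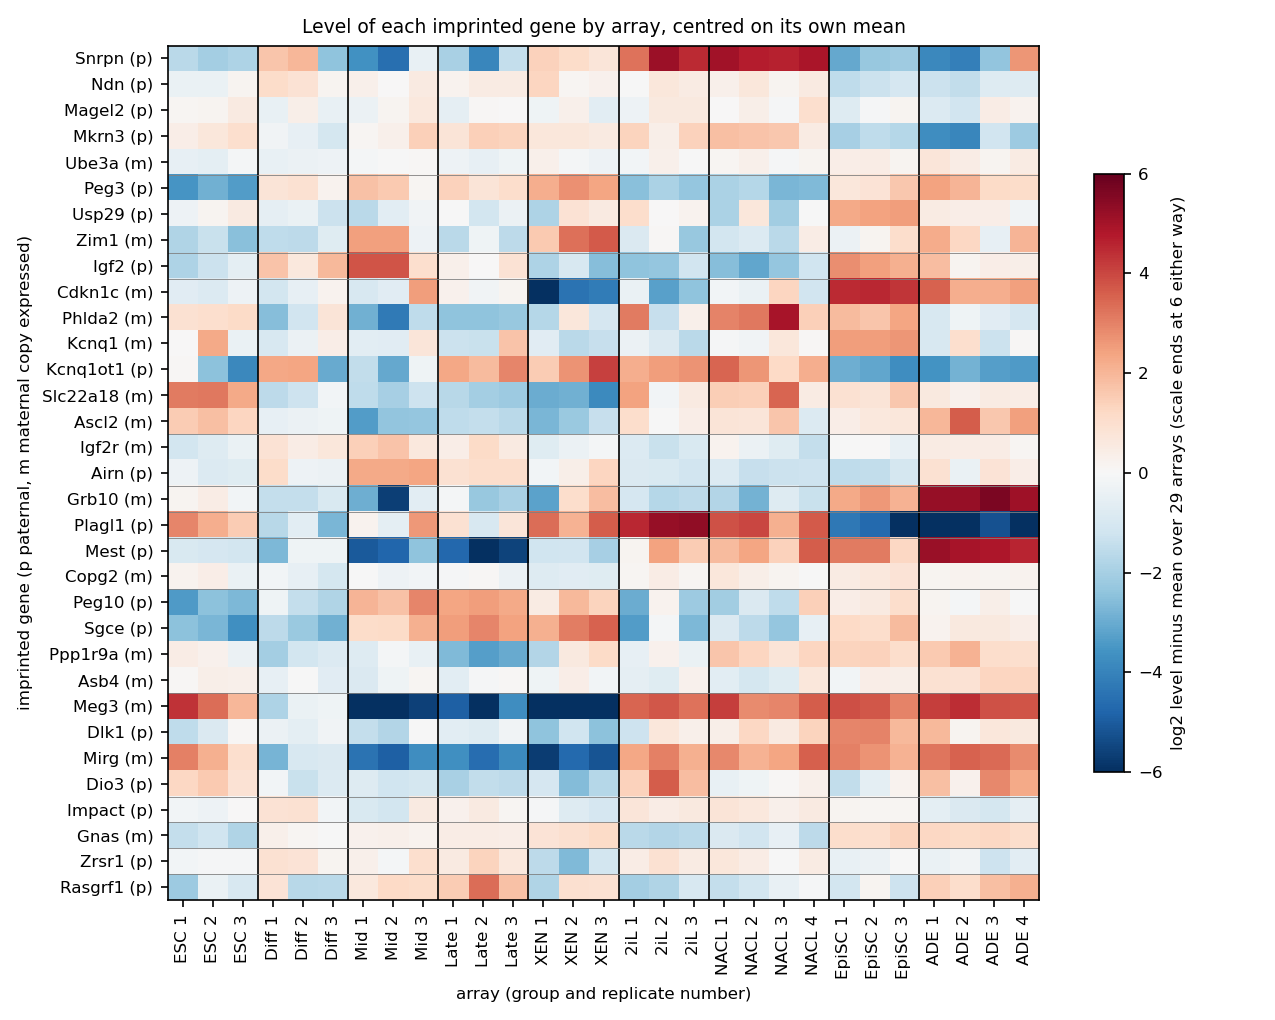
Level of the 33 imprinted genes tested on each of 29 arrays, as the log2 level minus the gene's own mean over all arrays (red above, blue below), with genes ordered by locus and marked by the parental copy known to be expressed. Meg3 and Mirg are low on the Mid, Late and XEN arrays, Plagl1 on the EpiSC and ADE arrays, and Snrpn is high on the 2iL and NACL arrays.

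The promoters of 4 members on which the results below turn are shown as examples, chosen after their values were seen, in which a hexamer bound by ZFP57 when methylated, TGCCGC (or its reverse complement GCGGCA), can be looked for. Each run is the 250 bases before the transcript start in RefSeq (GRCm38.p6), 5′ to 3′ on the strand of the gene, with hexamer matches in capitals. The Meg3 window (chr12:109540746-109540995, plus strand) held 1 match and 10 CpG, that of Kcnq1ot1 (chr7:143296548-143296797, minus strand) held 0 matches and 5 CpG, that of Plagl1 (chr10:13090582-13090831, plus strand) 1 match and 19 CpG, and that of Mest (chr6:30737800-30738049, plus strand) 2 matches and 14 CpG. For Meg3 and Mest, which have more than 1 start, the window with the most matches is shown.
Meg3: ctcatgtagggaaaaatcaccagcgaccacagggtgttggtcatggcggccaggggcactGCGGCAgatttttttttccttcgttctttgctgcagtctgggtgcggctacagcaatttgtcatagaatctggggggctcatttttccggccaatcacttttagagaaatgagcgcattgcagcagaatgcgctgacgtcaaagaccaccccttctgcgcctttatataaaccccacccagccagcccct
Kcnq1ot1: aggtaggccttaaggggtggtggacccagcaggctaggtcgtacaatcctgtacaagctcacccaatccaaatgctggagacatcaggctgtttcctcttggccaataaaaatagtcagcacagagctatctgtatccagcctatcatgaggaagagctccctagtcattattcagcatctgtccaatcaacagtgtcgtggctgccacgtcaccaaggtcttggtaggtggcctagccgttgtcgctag
Plagl1: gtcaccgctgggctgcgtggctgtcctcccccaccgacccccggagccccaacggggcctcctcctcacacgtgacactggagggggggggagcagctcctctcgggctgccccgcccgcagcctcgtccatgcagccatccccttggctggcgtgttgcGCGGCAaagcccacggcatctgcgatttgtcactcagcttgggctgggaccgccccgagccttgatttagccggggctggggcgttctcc
Mest: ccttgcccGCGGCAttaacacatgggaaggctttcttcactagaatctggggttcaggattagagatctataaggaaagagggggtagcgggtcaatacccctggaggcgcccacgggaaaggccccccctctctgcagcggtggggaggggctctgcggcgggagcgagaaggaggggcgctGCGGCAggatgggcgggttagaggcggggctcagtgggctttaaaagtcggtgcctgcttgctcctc
Across the members, 31 had a window in the table and 6 of them (19.4%) held a match in at least 1 window, against 9.84% of 27025 genes; the median CpG count was 12 against 6. These 6 were Zim1, Plagl1, Mest, Copg2, Meg3 and Nap1l5. Matching letters are a description of these windows and carry no information on binding.

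At the Dlk1 and Meg3 locus on chromosome 12, the noncoding RNAs of the maternal copy moved as a pair. Meg3, a long noncoding RNA, was at 6.51, 5.53 and 4.17 in ESC and 0.32, 1.77 and 1.88 in Diff. It was at -5.18, -5.0 and -3.44 in Mid and -2.72, -4.35 and -1.55 in Late, where 1 and 3 of 3 arrays were above background. The 3 ESC arrays lay above all Diff arrays, and these above all Mid and Late arrays. Meg3 fell by 4.08 ± 0.63 (adjusted p = 1.37e-05) from ESC to Diff, fell by 5.86 ± 0.63 (adjusted p = 4.65e-07) from Diff to Mid and, over the whole route, fell by 9.11 ± 0.55 (adjusted p = 2.87e-12) in nEnd (Mid and Late averaged) against ESC. XEN was also dim, at -6.31, -4.84 and -5.30, with 1 of 3 arrays above background. Every pluripotent culture and ADE stayed high: 2iL at 5.65, 5.88 and 5.41, EpiSC at 6.02, 5.90 and 5.14, NACL at 6.30, 5.01, 5.09 and 5.81 and ADE at 6.33, 6.58, 5.97 and 5.91. In the endoderm derived from EpiSC the difference from its source was 0.51 ± 0.59 (adjusted p = 0.561) and was not called.

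Mirg, the transcript that carries a cluster of microRNAs downstream of Meg3, was at 4.37, 3.47 and 2.38 in ESC, -1.44, 0.39 and 0.49 in Diff, -3.08, -3.54 and -2.38 in Mid and -2.34, -3.22 and -2.45 in Late. It fell by 3.59 ± 0.51 (adjusted p = 4.23e-06) in Diff, fell by 2.81 ± 0.51 (adjusted p = 0.000221) in Mid against Diff and fell by 6.24 ± 0.44 (adjusted p = 3.69e-11) in nEnd against ESC, again with no overlap of arrays. Meg3 and Mirg correlated at 0.988 over the 29 arrays, the highest of the 42 pairs of members that share a locus. The median was 0.42 over these pairs and -0.02 over the 486 pairs that do not. Values over 0.5 were found in 15 of the 42 and in 71 of the 486. These correlations are a description over arrays that share groups and array sets. The other probes of Meg3 also had Mid, Late and XEN as the dimmest groups, with ESC means of 1.39 and -1.74 and Mid means of -5.97 and -6.66.

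The paternally expressed protein genes of that cluster took other courses. Dlk1, a membrane protein related to Notch ligands that restrains differentiation, was highest in EpiSC at 1.24, 1.30 and 0.26, against -2.93, -1.0 and -1.37 in 2iL, and rose by 2.70 ± 0.54 (adjusted p = 0.000284). ADE lay at 0.28, -1.53, -1.03 and -1.10, which overlapped EpiSC on 1 array, and Diff, Mid and Late had means between -2.76 and -2.08. Dio3, the enzyme that inactivates thyroid hormone, was at -1.66, 0.58 and -1.22 in 2iL and -3.48, -3.31, -3.0 and -2.73 in NACL of the same lines, with no overlap, and fell by 2.36 ± 0.54 (adjusted p = 0.0062) in NACL. It also fell by 2.02 ± 0.57 (adjusted p = 0.00623) from ESC (-1.79, -1.47 and -2.16) to Diff (-3.21, -4.40 and -3.87). Where the EpiSC arrays stood at -4.54, -3.64 and -2.83, Dio3 rose by 2.42 ± 0.54 (adjusted p = 0.000922) in ADE to -1.26, -2.80, -0.17 and -0.77. Rtl1, a retrotransposon-derived gene needed in the placenta, was above background on 1 NACL array only.

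**Figure D2:**
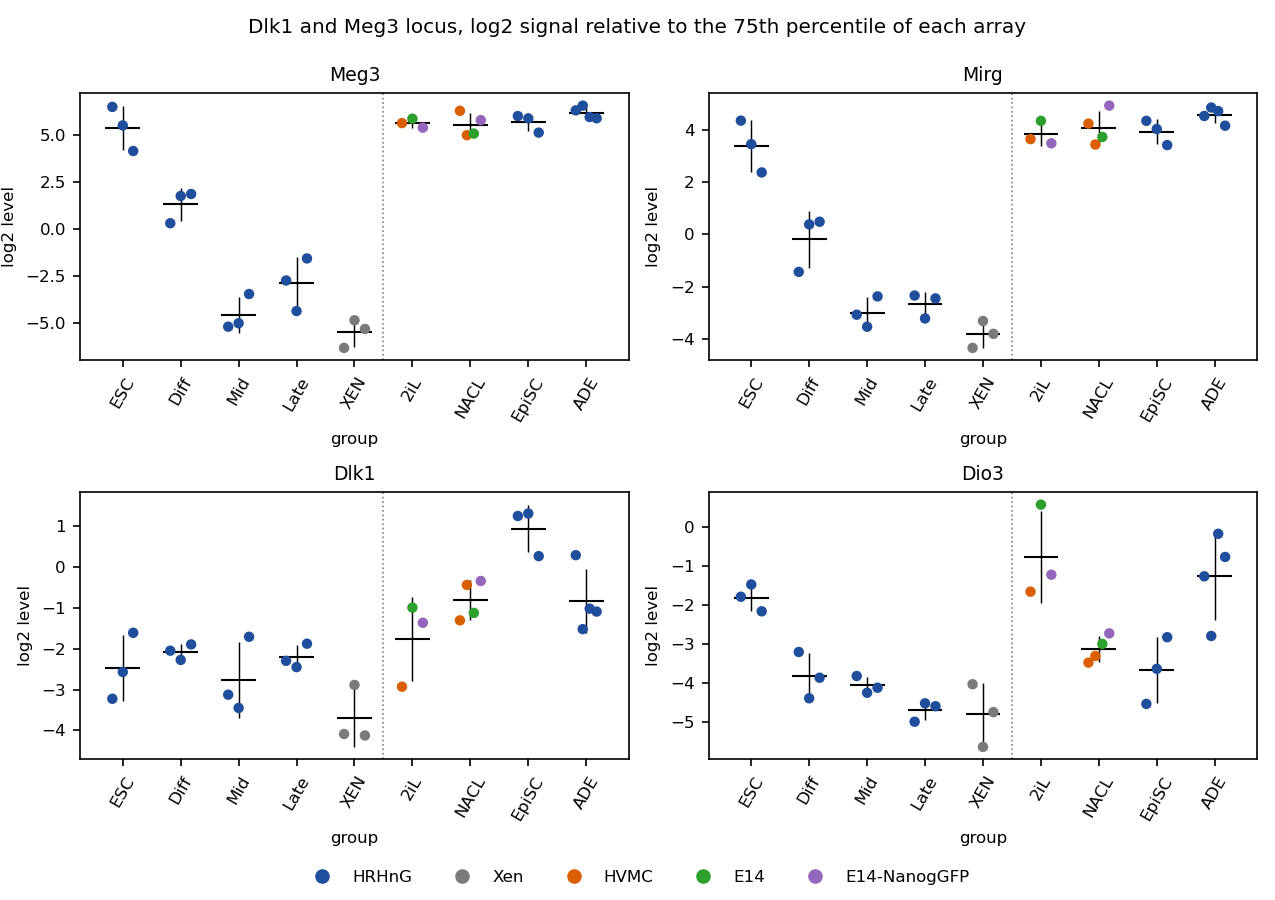
Log2 levels of Meg3, Mirg, Dlk1 and Dio3 on every array, by group and coloured by cell line; the horizontal bar is the group mean, the vertical line 1 SD either side, and the dotted line parts the array sets. Meg3 and Mirg stay high in ESC, 2iL, NACL, EpiSC and ADE, are intermediate in Diff and are low in Mid, Late and XEN.

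Snrpn, Kcnq1ot1 and Plagl1, which are transcribed from the paternal copy at starts that are methylated on the maternal one, were lower in HRHnG cells, as ESC and as EpiSC, than in 2iL of the other lines. Snrpn, a splicing factor subunit of the Prader-Willi and Angelman locus on chromosome 7, was at 1.44, 3.31 and 2.64 in 2iL and 3.21, 2.87, 2.78 and 3.04 in NACL. In HRHnG it was at -3.46, -3.89 and -3.71 in ESC, -4.92, -4.09 and -3.97 in EpiSC, -5.47, -6.37 and -2.30 in Mid and -3.78, -5.77 and -3.29 in Late, where 3, 2, 1 and 2 of 3 arrays were above background. The same line was not uniformly low: Diff stood at -0.20, 0.16 and -4.26 and ADE at -5.72, -5.95, -4.19 and 0.79, so that 2 Diff arrays and 1 ADE array lay far above their group's others. The difference from 2iL was -6.15 ± 1.30 (adjusted p = 0.00467) in ESC and -6.79 ± 1.30 (adjusted p = 0.000177) in EpiSC, both called. A second Snrpn probe had means of 1.06 in 2iL and 1.61 in NACL, was above background on no ESC, EpiSC, Late or ADE array, and had a mean of -2.18 in Diff. The ADE array at 0.79 by the probe kept was thus not above background by this second probe. XEN lay between the lines at -0.47, -0.76 and -1.10, and the difference of nEnd from XEN was -3.72 ± 1.12 (adjusted p = 0.0101).

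Kcnq1ot1, the noncoding RNA that silences neighbouring genes of the Kcnq1 cluster in cis, was at -1.24, -0.90 and -0.70 in 2iL and 0.07, -0.77, -2.21 and -1.23 in NACL. Within HRHnG, ESC lay at -3.32, -5.86 and -7.27 and Mid at -4.89, -6.47 and -3.67, each with 1 of 3 arrays above background, and Diff at -1.07, -1.04 and -6.44. Late was high on all arrays, at -1.10, -1.52 and -0.46, and Kcnq1ot1 rose by 3.98 ± 1.07 (adjusted p = 0.0269) from Mid to Late, a call lost without the first or the third Late array or the first or the second Mid array (adjusted p from 0.0744 to 0.123), with the mean of both probes (adjusted p = 0.0844) and with the arrays of these groups alone, blocked on replicate (adjusted p = 0.0662) or not (adjusted p = 0.0561). The difference of ESC from 2iL was -4.53 ± 1.07 (adjusted p = 0.00952). By the probe kept, no EpiSC or ADE array was above background (by the other probe no EpiSC and 1 ADE array), which made EpiSC at least 16.1-fold lower than 2iL (adjusted p = 0.000139); such a bound sets the dim side at the lowest signal well above background. Diff held 2 arrays near the 2iL level and 1 at background, and the SD of Kcnq1ot1, 3.11, was the largest of any member in Diff. The array at background was the only Diff array read on the second scan day.

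Plagl1, a zinc finger factor that regulates other imprinted genes, was high in 2iL and low in EpiSC. The 2iL arrays were at 4.84, 5.54 and 5.60 and the EpiSC arrays at -3.98, -4.38 and -7.34, a difference of -10.56 ± 0.85 (adjusted p = 9.92e-10) with 2 of 3 EpiSC arrays above background and a range of -11.46 to -5.78 over the alternatives; by that probe no ADE array was above background. ESC stood at 3.23, 2.46 and 1.80 and Diff at -1.37, -0.34 and -2.45, and Plagl1 fell by 3.88 ± 0.85 (adjusted p = 0.000666) between them. Mid, Late and XEN were at 0.53, -0.28 and 2.91, 1.20, -0.68 and 1.04 and 3.64, 2.40 and 3.94. Plagl1 rose by 2.44 ± 0.85 (adjusted p = 0.0332) from Diff to Mid, a call that was lost without the third Mid array (adjusted p = 0.212) and with the first scan day alone (adjusted p = 0.534). The difference of ESC from 2iL was -2.83 ± 0.85 (adjusted p = 0.0361). Of the 4 Plagl1 probes, 1 other followed the same course, while the means of the remaining 2 stayed within -2.65 to -1.32 and -1.48 to -0.66, above background on all ADE and EpiSC arrays.

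Mest, a hydrolase-like protein of early mesoderm on chromosome 6, was high in every group of the second array set and highest in ADE, at 6.61, 6.34, 6.29 and 5.97, against 4.56, 4.54 and 2.68 in EpiSC. It rose by 2.38 ± 0.73 (adjusted p = 0.0122) in ADE, a call lost without the third EpiSC array (adjusted p = 0.0994). ESC was at 0.52, 0.40 and 0.31, Diff at -1.27, 1.18 and 1.16, Mid at -3.63, -3.34 and -0.99 and Late at -3.29, -6.01 and -4.13. Across the whole route Mest fell by 3.97 ± 0.68 (adjusted p = 2.54e-05) in nEnd against ESC, with 3 of 6 nEnd arrays above background, and the difference of nEnd from XEN was -3.52 ± 0.68 (adjusted p = 0.000193). Copg2, the neighbouring coat protein gene transcribed against it, had group means between 2.16 and 3.53.

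The comparison ESC minus 2iL sets HRHnG against the other lines in the same medium. Of 33 members, 4 were called, 1 higher (Slc22a18) and 3 lower (Snrpn, Kcnq1ot1 and Plagl1), beside 10.2% of all genes (2.36% higher and 7.84% lower), and 3 were called with no overlap of arrays, beside 9.76% of all genes. Line and array set change together here and cannot be told apart. Snrpn kept its call under all 13 alternatives; Kcnq1ot1 lost it without the third ESC array (adjusted p = 0.0615) and when only the arrays of these groups were fitted (adjusted p = 0.0542). Plagl1 lost it without any 1 of the ESC or 2iL arrays and with no filter on dim probes (adjusted p from 0.0502 to 0.123). The count was 2 without each ESC array and without the second or the third 2iL array. Genes called were 863, 840 and 997 without each ESC array in turn, and 891 and 1479 without those 2iL arrays, of 16342. Scaling each array on its median gave 0 higher and 4 lower calls, without Slc22a18.

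**Figure D3:**
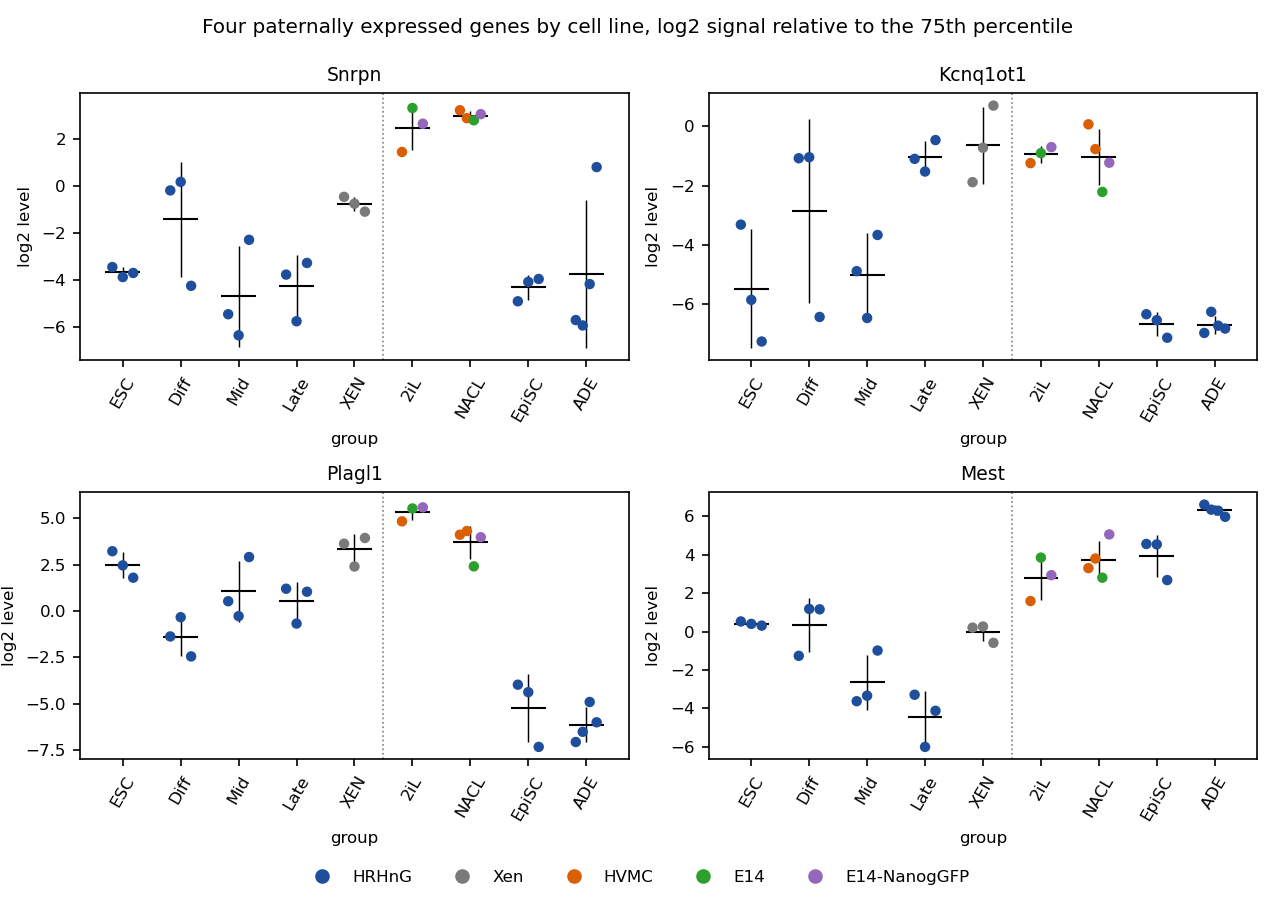
Log2 levels of Snrpn, Kcnq1ot1, Plagl1 and Mest, all transcribed from the paternal copy, on every array by group and coloured by cell line, with group means, 1 SD either side and a dotted line between the array sets. In Snrpn, Kcnq1ot1 and Plagl1 the 2iL and NACL arrays all lie above the EpiSC and ADE arrays, and in Snrpn and Kcnq1ot1 the Diff arrays lie apart from each other.

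Within 2iL and NACL the line HVMC (3 arrays) could be set against E14 and E14-NanogGFP (4 arrays) at equal medium. By limma 0 of 33 members were called, as was 0.00612% of all genes (1 gene), and 2 members and 1837 genes had an unadjusted p under 0.05. Snrpn ran from 1.44 to 3.31, Meg3 from 5.01 to 6.30 and Kcnq1ot1 from -2.21 to 0.07 over these 7 arrays. Phlda2 had the widest range of the members tested, from -3.01 to 3.36, and both ends were of the E14 line, whose 2iL array was the lowest and whose NACL array the highest.

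Slc22a18, Ascl2 and Phlda2, genes of the Kcnq1 cluster on chromosome 7 that are expressed from the maternal copy, fell along the route to nEnd. Slc22a18, a transporter of organic cations, was at 2.20, 2.25 and 1.37 in ESC, -2.47, -2.16 and -1.06 in Diff, -2.40, -2.87 and -2.16 in Mid and -2.55, -2.93 and -3.07 in Late, with no overlap between ESC and the others. It fell by 3.84 ± 0.58 (adjusted p = 1.1e-05) in Diff and fell by 4.60 ± 0.50 (adjusted p = 4.97e-08) in nEnd against ESC. Ascl2, a transcription factor required for the trophoblast, was at 1.01, 1.29 and 0.78 in ESC, -1.03, -0.86 and -0.79 in Diff and -3.85, -2.87 and -2.85 in Mid. It fell by 1.92 ± 0.49 (adjusted p = 0.00275) and then fell by 2.30 ± 0.49 (adjusted p = 0.00114), but rose by 1.87 ± 0.46 (adjusted p = 0.0023) in ADE, where it was at 1.49, 3.13, 1.11 and 1.95 against -0.10, 0.10 and 0.16 in EpiSC. Phlda2, a restrainer of placental growth, fell by 3.64 ± 0.81 (adjusted p = 0.000555) in nEnd against ESC, with 4 of 6 nEnd arrays above background, and fell by 2.69 ± 0.88 (adjusted p = 0.0183) in ADE against EpiSC. Slc22a18 and Ascl2 correlated at 0.76 over the 29 arrays and Phlda2 and Slc22a18 at 0.75. Slc22a18 and Ascl2 each correlated more closely with Meg3, on another chromosome, at 0.845 and 0.88.

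Cdkn1c, the cyclin-dependent kinase inhibitor p57, is a further gene of the maternal copy and was not called in nEnd minus ESC. It was at 5.05, 5.10 and 4.86 in EpiSC and 0.17, -2.69 and -1.83 in 2iL, a rise of 6.46 ± 0.78 (adjusted p = 4.92e-07). XEN was lowest, at -5.94, -3.88 and -3.62 with 2 of 3 arrays above background, and nEnd exceeded XEN by 5.22 ± 0.68 (adjusted p = 1.53e-06). ESC and Diff were at -0.11, -0.28 and 0.24 and at -0.53, 0.09 and 0.75, and the third Mid array, at 3.06, lay above the other 2, at -0.42 and -0.11. Kcnq1, a potassium channel, was above background on all EpiSC arrays at -3.13, -3.15 and -2.99 and on no 2iL, NACL or ADE array, so that EpiSC was at least 3.01-fold above 2iL (adjusted p = 0.00041) and ADE at least 2.99-fold below EpiSC (adjusted p = 0.00177). Both Kcnq1 calls were lost with the normexp background correction (adjusted p = 0.164 and 0.486). In no other group was Kcnq1 above background on each array, so it was tested only through the group where it is high. Over the 29 arrays Cdkn1c and Kcnq1ot1 correlated at -0.642, the lowest value of the 42 pairs that share a locus. The lowest among the pairs that do not share a locus was -0.808.

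Igf2, the fetal growth factor, and Igf2r, the receptor that clears it, both lay higher in endoderm derived from naive cells. Igf2 was at -4.37, -3.83 and -3.11 in ESC, -0.82, -1.89 and -0.60 in Diff, 1.23, 1.22 and -1.54 in Mid and -2.23, -2.53 and -1.68 in Late. It rose by 2.66 ± 0.64 (adjusted p = 0.00152) in Diff and rose by 2.84 ± 0.55 (adjusted p = 0.000122) in nEnd against ESC, and it fell by 2.46 ± 0.64 (adjusted p = 0.0227) from Mid to Late with no overlap. That fall was not called without the first or the second array of Late or of Mid (adjusted p from 0.0636 to 0.124), nor with only these groups fitted, blocked on replicate (adjusted p = 0.192) or not (adjusted p = 0.147). XEN lay at -4.39, -3.52 and -5.09 with 1 of 3 arrays above background, and nEnd exceeded it by 3.41 ± 0.55 (adjusted p = 2.74e-05). The EpiSC arrays were at 0.25, -0.09 and -0.41 and the 2iL arrays at -4.95, -4.84 and -3.67, of which 1 was above background, a difference of 4.40 ± 0.64 (adjusted p = 6.04e-06). Igf2r was at 2.05, 2.38 and 2.78 in ESC and 4.59, 4.88 and 3.78 in Mid and rose by 1.74 ± 0.28 (adjusted p = 1.59e-05) in nEnd. Airn, the noncoding RNA that silences Igf2r on the paternal copy, was also highest in Mid, at 1.74, 1.73 and 1.84 against 0.54, -0.84 and -0.87 in Diff. It rose by 2.16 ± 0.36 (adjusted p = 8.57e-05) in Mid and fell by 1.30 ± 0.36 (adjusted p = 0.0294) in Late. The fall in Late was not called without any 1 of the Mid or Late arrays (adjusted p from 0.0556 to 0.111) or with the mean of both probes (adjusted p = 0.394), the other probe having means of -0.65 in Mid and -0.93 in Late. Igf2r and Airn correlated at 0.733 over the 29 arrays.

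Peg3 and the pair Peg10 and Sgce rose along the route to nEnd. Peg3, a zinc finger protein on chromosome 7, was at -3.30, -2.65 and -3.14 in ESC, -2.25, -1.65 and -2.10 in 2iL and -1.65, -1.46, -2.51 and -2.43 in NACL. It stood at 0.99, 1.14 and 0.43 in Diff, 0.91, 1.04 and 1.84 in EpiSC and 2.42, 2.97 and 2.59 in XEN, with no overlap between the naive groups and these. It rose by 3.88 ± 0.41 (adjusted p = 5.87e-08) in Diff and by 3.26 ± 0.41 (adjusted p = 7.41e-07) in EpiSC against 2iL. Usp29, a deubiquitinase gene that starts beside Peg3, was above background on all EpiSC arrays, at -2.28, -2.16 and -2.05, and fell by 2.12 ± 0.60 (adjusted p = 0.00693) in ADE. In no other group was it above background on each array, so it was tested only through the group where it is high. Zim1, a zinc finger gene downstream, was above background on no Diff array and 2 of 3 Mid arrays, at least 2.31-fold higher in Mid (adjusted p = 0.00933); the third Mid array lay at -5.21. By the other Zim1 probe no Mid or Diff array was above background. Only in XEN was Zim1 above background on each array, so it was tested only through the group where it is highest. The Zim1 call was lost without the first or the second Mid array (adjusted p = 0.0554 and 0.0579). It was also lost with normexp, where the difference was 0.30 (adjusted p = 0.477), with the series matrix values (adjusted p = 0.125) and with only the arrays compared (adjusted p = 0.0522).

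Peg10, a retrotransposon-derived gene essential for the placenta, was at -4.90, -3.96 and -4.19 in ESC and -1.75, -2.93 and -3.29 in Diff. It was at 0.55, 0.28 and 1.44 in Mid and 0.90, 1.04 and 0.81 in Late, above all ESC and Diff arrays. It rose by 3.41 ± 0.71 (adjusted p = 0.00086) from Diff to Mid and rose by 5.19 ± 0.61 (adjusted p = 1.49e-07) in nEnd against ESC, where 2 of 3 ESC arrays were above background. Sgce, the epsilon-sarcoglycan gene that shares its promoter region with Peg10, was at -0.58, -1.23 and -1.91 in Diff, 2.11, 2.15 and 3.10 in Mid and 3.51, 3.90 and 3.42 in Late. It rose by 3.69 ± 0.59 (adjusted p = 6.3e-05) from Diff to Mid and rose by 5.0 ± 0.51 (adjusted p = 1.73e-08) in nEnd against ESC, and the pair correlated at 0.9 over the 29 arrays. Ppp1r9a, a scaffold protein of the same cluster, went the other way late in the route. It fell by 2.56 ± 0.49 (adjusted p = 0.0029) from Mid (-0.48, 0.15 and -0.17) to Late (-2.37, -3.03 and -2.77). Asb4, a ubiquitin ligase adaptor, rose by 0.89 ± 0.33 (adjusted p = 0.0375) in ADE by the probe chosen, while its other probe had means of 0.17 in EpiSC and 3.78 in ADE, against -6.83 to -4.26 in the other groups, and so gave a larger difference in the same direction.

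**Figure D4:**
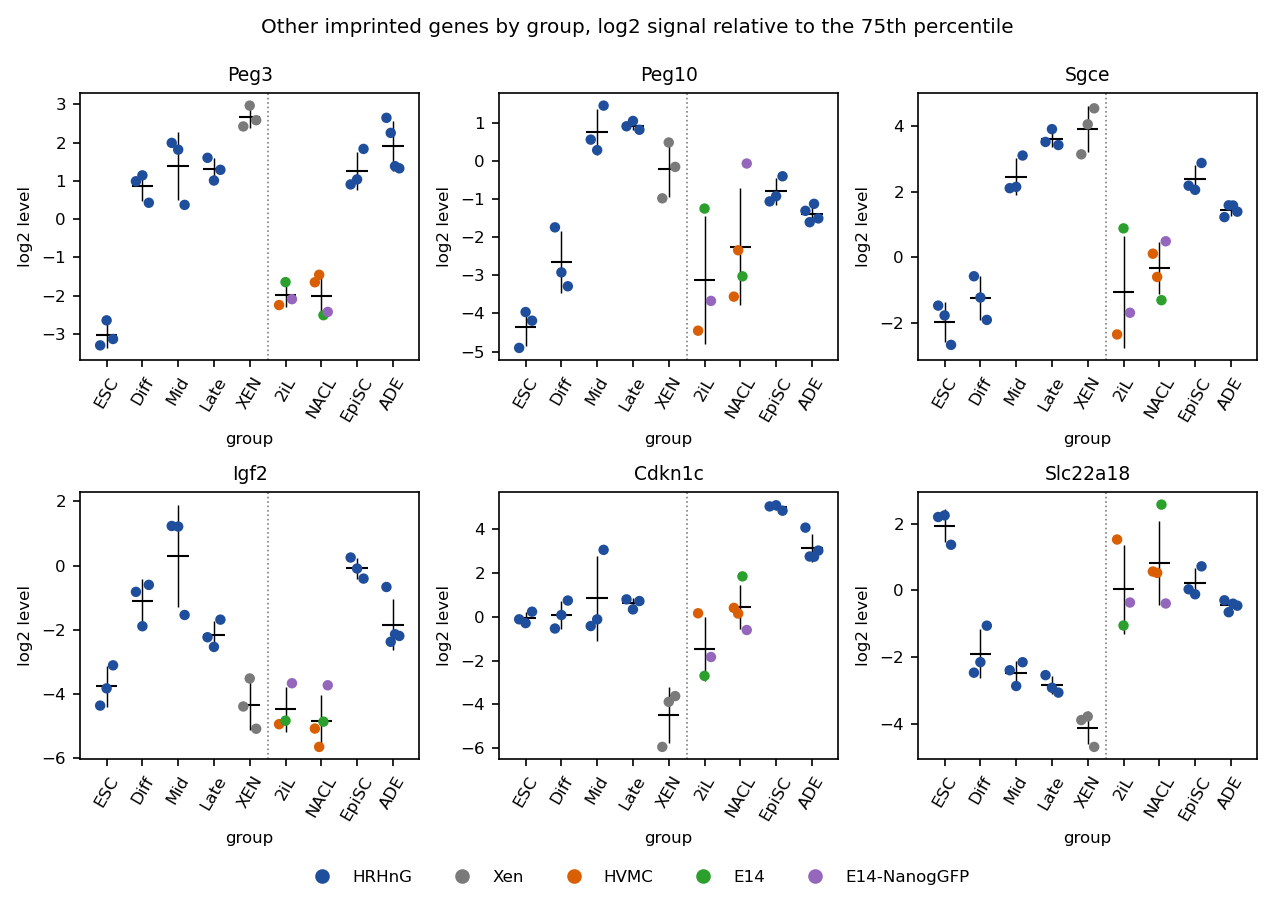
Log2 levels of Peg3, Peg10, Sgce, Igf2, Cdkn1c and Slc22a18 on every array by group and coloured by cell line, with group means, 1 SD either side and a dotted line between the array sets. Peg3 is low in ESC, 2iL and NACL and high elsewhere, Peg10 and Sgce rise at Mid, Cdkn1c peaks in EpiSC and Slc22a18 is lower in Diff, Mid, Late and XEN than in ESC.

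Grb10, an adaptor that restrains growth factor signalling, was highest in ADE, at 5.26, 5.26, 5.65 and 5.10, followed by EpiSC at 2.27, 2.61 and 2.12 and then 2iL at -1.0, -1.71 and -1.58, with no overlap between the 3. It rose by 3.76 ± 0.99 (adjusted p = 0.00371) in EpiSC against 2iL and rose by 2.99 ± 0.93 (adjusted p = 0.0135) in ADE. In Mid and XEN its arrays ran from -5.63 to -0.64 and from -3.20 to 1.85, with the largest SD of any member in those groups. Gnas, the stimulatory G protein alpha subunit, was at 4.44, 4.68 and 4.05 in ESC and 6.15, 5.96 and 5.83 in Diff and rose by 1.59 ± 0.20 (adjusted p = 7.69e-07). EpiSC lay at 6.93, 6.88 and 7.22 and 2iL at 4.24, 4.11 and 4.22, a difference of 2.82 ± 0.20 (adjusted p = 1.27e-10). The locus has overlapping transcripts, and with the mean of all Gnas probes the nEnd minus XEN difference turned, from -0.62 ± 0.17 (adjusted p = 0.00517) to 0.14 (adjusted p = 0.704).

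Rasgrf1, a Ras exchange factor, was by the probe kept above background on no ESC array and 5 of 6 nEnd arrays, at least 3.21-fold higher in nEnd (adjusted p = 0.000471), a call lost with normexp (adjusted p = 0.0904) and with the series matrix values (adjusted p = 0.0865). By its other probe 1 ESC, 2 Late and 0 Mid arrays were above background, with means of -5.69, -5.18 and -6.03. Zrsr1, a splicing factor-like gene, was lowest in XEN, at -0.12, -1.17 and 0.37, and nEnd exceeded XEN by 2.39 ± 0.30 (adjusted p = 8.08e-07). Impact, a regulator of the translational stress response, had group means between 3.38 and 4.73. Ndn, a growth suppressor of the Prader-Willi and Angelman locus, was lower in EpiSC, at -2.94, -2.72 and -2.44, than in 2iL, at -1.45, -0.75 and -0.94, with a difference of -1.65 ± 0.29 (adjusted p = 7.5e-05). Mkrn3, a ubiquitin ligase there, differed by -2.77 ± 0.52 (adjusted p = 0.000151), with 2 of 3 EpiSC arrays above background. Magel2 and Ube3a, a ubiquitin ligase regulator and a ubiquitin ligase, were called in none of the 11 comparisons. Nap1l5, a histone chaperone-like gene, was above background on 2 2iL and 2 NACL arrays and on no other. Nnat, a proteolipid of neural cells, was above background on 3 of 4 NACL arrays, 2 of 3 ESC and 2iL arrays, and 1 array each of Late and EpiSC. By its other probe all 4 NACL arrays were above background, but that probe is not the brighter on average and was not tested.

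Read by comparison, the induction of endoderm from naive cells, Diff minus ESC, called 13 members, 5 higher and 8 lower, beside 42.4% of all genes (23.5% higher and 18.9% lower), and 12 were called with no overlap of arrays, beside 41.1% of all genes. Members had a median difference of 0.05 and a median size of 1.27, beside -0.04 and 0.66 over all genes. Of 15 maternally expressed members 6 fell (Meg3, Slc22a18, Mirg, Ascl2, Ppp1r9a and Copg2) and 2 rose (Igf2r and Gnas), and of 18 paternally expressed members 2 fell (Plagl1 and Dio3) and 3 rose (Peg3, Igf2 and Ndn). The share of calls that were higher depended on the scaling: 5 of 13 with the 75th percentile, 9 of 15 with the median of each array and 8 of 16 with quantile normalization. Scaling on the median moved the median of all genes by 0.36 in this comparison. Among the members called with no overlap and not described above, Ppp1r9a fell by 1.42 ± 0.49 (adjusted p = 0.0231), Igf2r rose by 1.41 ± 0.33 (adjusted p = 0.00124) and Ndn rose by 0.91 ± 0.29 (adjusted p = 0.0147). Without the third Diff array, whose Snrpn and Kcnq1ot1 levels stood apart, 19 members were called, beside 6464 of 16342 genes. That array was the only Diff array read on the second scan day.

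Expansion of the culture, Mid minus Diff, called 10 members, 5 in each direction, beside 29.2% of all genes (12.3% higher and 16.8% lower), and 8 were called with no overlap of arrays, beside 26% of all genes. At the median the members differed by 0.08 (all genes -0.06), with a size of 1.03 (all genes 0.48). Those that rose were Sgce, Peg10, Zim1, Plagl1 and Airn, and those that fell were Meg3, Mest, Mirg, Ascl2 and Impact. The count was 6, beside 2733 of 16342 genes, when only the arrays of Mid and Diff were fitted. It was 14, beside 4652 of 16342 genes, without the third Mid array, the only one of Mid read on the second scan day. The Snrpn, Igf2, Cdkn1c and Zim1 levels of that array lay apart from the other Mid arrays. Late minus Mid called 5 members, 1 higher (Kcnq1ot1) and 4 lower (Ppp1r9a, Igf2, Airn and Zim1), beside 6.85% of all genes (3.78% higher and 3.07% lower), and 4 were called with no overlap of arrays, beside 6.58% of all genes. The median difference was 0.12 over the 33 members tested and 0.12 over all genes, and the median size, whatever the direction, was 0.53 and 0.34. That count rests on few arrays: it was 1 without the first Late array, the first Mid array or the second Mid array and 2 without the third Late array. Of all 16342 genes, 438, 493, 658 and 409 were called in these fits, in that order. Same-numbered Mid and Late arrays deviated together, as did some same-numbered arrays of other groups. With the replicate number as a block the count was 5 in the fit of all arrays but 0 in a fit of these 6 Mid and Late arrays alone. In that fit limma gave 9 members and 3493 genes an unadjusted p under 0.05, and 0 genes were called. Zim1, called in both steps, was above background on 2 of 3 Mid arrays and on no Diff or Late array.

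Over the whole route, nEnd minus ESC called 20 members, 11 higher and 9 lower, beside 53.3% of all genes (28% higher and 25.3% lower), and 15 were called with no overlap of arrays, beside 45.5% of all genes. Members had a median difference of -0.02 and a median size of 1.83, beside -0.05 and 0.68 over all genes. Also without overlap, Peg3 rose by 4.38 ± 0.35 (adjusted p = 3.21e-10), Airn rose by 2.28 ± 0.31 (adjusted p = 1.17e-06), Gnas rose by 1.82 ± 0.17 (adjusted p = 4.59e-09) and Ascl2 fell by 3.64 ± 0.42 (adjusted p = 1.32e-07), and Dio3, above background on 3 of 6 nEnd arrays, fell by 2.58 ± 0.50 (adjusted p = 0.000111). Paternally expressed members were more often higher than lower (8 against 2 of 18) and maternally expressed members more often lower than higher (7 against 3 of 15), as counts with no test of the difference. Against the established line, nEnd minus XEN called 19 members, 10 higher and 9 lower, beside 41.1% of all genes (16.6% higher and 24.5% lower), and 10 were called with no overlap of arrays, beside 28.7% of all genes. Median scaling turned the split to 5 higher and 11 lower. Zim1 was tested only through XEN, where it is highest. At the median the members differed by 0.19 (all genes -0.03), with a size of 1.21 (all genes 0.54). Besides Cdkn1c, Igf2, Snrpn and Mest, those with no overlap of arrays were Zrsr1 and Gnas, given above, and Slc22a18, Igf2r, Copg2 and Peg3. Their differences were 1.47 ± 0.50 (adjusted p = 0.0226), 1.37 ± 0.28 (adjusted p = 0.000454), 0.57 ± 0.19 (adjusted p = 0.0198) and -1.31 ± 0.35 (adjusted p = 0.0042). The line differs as well as the culture, and the Slc22a18, Copg2 and Gnas calls were each lost under at least 1 scaling.

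Primed against naive cells, EpiSC minus 2iL called 19 members, 12 higher and 7 lower, beside 41.6% of all genes (21.5% higher and 20.2% lower), and 19 were called with no overlap of arrays, beside 39.7% of all genes. The median difference was 0.54 over the 33 members tested and -0.02 over all genes, and the median size, whatever the direction, was 1.48 and 0.59. The 7 lower ones, Plagl1, Snrpn, Kcnq1ot1, Dio3, Mkrn3, Ndn and Zrsr1, are all classed as paternally expressed. Of the 12 higher ones 6 are classed as maternal (Cdkn1c, Grb10, Kcnq1, Gnas, Ppp1r9a and Igf2r) and 6 as paternal (Igf2, Sgce, Peg3, Dlk1, Peg10 and Usp29). Among the 12, Kcnq1 and Usp29 were tested only through EpiSC, where they are high. Of those not given above, Sgce rose by 3.42 ± 0.59 (adjusted p = 5.7e-05), Peg10 rose by 2.32 ± 0.71 (adjusted p = 0.0103) and Usp29 rose by 1.97 ± 0.64 (adjusted p = 0.016), the last 2 with 2 of 3 2iL arrays above background. Dio3, above background on 2 of 3 EpiSC arrays, fell by 2.90 ± 0.57 (adjusted p = 0.000253), and Zrsr1 fell by 0.91 ± 0.34 (adjusted p = 0.036). Feeder fibroblast markers moved with this comparison: 6 of 7 were above background on all EpiSC arrays and 3 of 7 on all 2iL arrays, with summed levels of 4.12 to 4.69 in EpiSC and 0.82 to 1.52 in 2iL, and Postn was above background on no 2iL array. Their part in the result was not tested. The count was 12 with the arrays of slide 5 alone, and Grb10, Usp29 and Zrsr1 were called on neither slide taken alone.

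Adaptation of naive lines to the second medium, NACL minus 2iL, called 3 members, Dio3 lower and Ppp1r9a and Gnas higher, beside 8.26% of all genes (4.12% higher and 4.14% lower), and 3 were called with no overlap of arrays, beside 7.1% of all genes. Members had a median difference of 0.11 and a median size of 0.38, beside 0.06 and 0.29 over all genes. Gnas rose by 0.66 ± 0.19 (adjusted p = 0.0268) and Ppp1r9a rose by 1.47 ± 0.46 (adjusted p = 0.0499). Of 20 alternatives each, Gnas lost its call under 9, among them leaving out any 1 2iL array (adjusted p from 0.0671 to 0.0747), the mean of probes (adjusted p = 0.2) and slide 6 alone, where the difference was 0.08 (adjusted p = 0.967), and Ppp1r9a under 12. Summed feeder marker levels were 1.57 to 4.19 in NACL and 0.82 to 1.52 in 2iL, with 4 of 7 and 3 of 7 above background on all arrays, and their part in the result was not tested. The count was 1 without the first or the third NACL array or the third 2iL array, and only Dio3 was called when arrays were scaled on their median. Genes called were 1201, 1071 and 976 without these arrays and 850 with that scaling, of 16342. With cell line as a block 2 members were called. Dio3 itself was lost without the second 2iL array (adjusted p = 0.053) and with only the arrays of these groups (adjusted p = 0.0638). Differentiation of primed cells, ADE minus EpiSC, called 13 members, 7 higher and 6 lower, beside 37.6% of all genes (16.9% higher and 20.7% lower), and 12 were called with no overlap of arrays, beside 35.4% of all genes. At the median the members differed by 0.03 (all genes -0.05), with a size of 0.89 (all genes 0.51). Grb10, Dio3, Mest, Rasgrf1, Ascl2, Airn and Asb4 rose, and Kcnq1 and Usp29 (both tested only through EpiSC, where they are high), Phlda2, Dlk1, Igf2 and Impact fell. Of those not given above, Igf2 fell by 1.76 ± 0.60 (adjusted p = 0.0223), Impact fell by 0.88 ± 0.31 (adjusted p = 0.0275) and Airn rose by 1.78 ± 0.33 (adjusted p = 0.000168). Rasgrf1, above background on 1 of 3 EpiSC arrays, rose by 2.34 ± 0.66 (adjusted p = 0.00674) by the probe kept. By its other probe no EpiSC or ADE array was above background. That Rasgrf1 call was lost with normexp (adjusted p = 0.0626), the mean of probes (adjusted p = 0.128) and the series matrix values (adjusted p = 0.112). Summed feeder marker levels were 2.03 to 4.15 in ADE and 4.12 to 4.69 in EpiSC, and their part in these changes was not tested. The count was 4 with slide 5 alone and 7 with slide 6 alone, and Grb10, Mest, Igf2, Rasgrf1, Asb4 and Impact were called on neither slide alone.

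**Figure D5:**
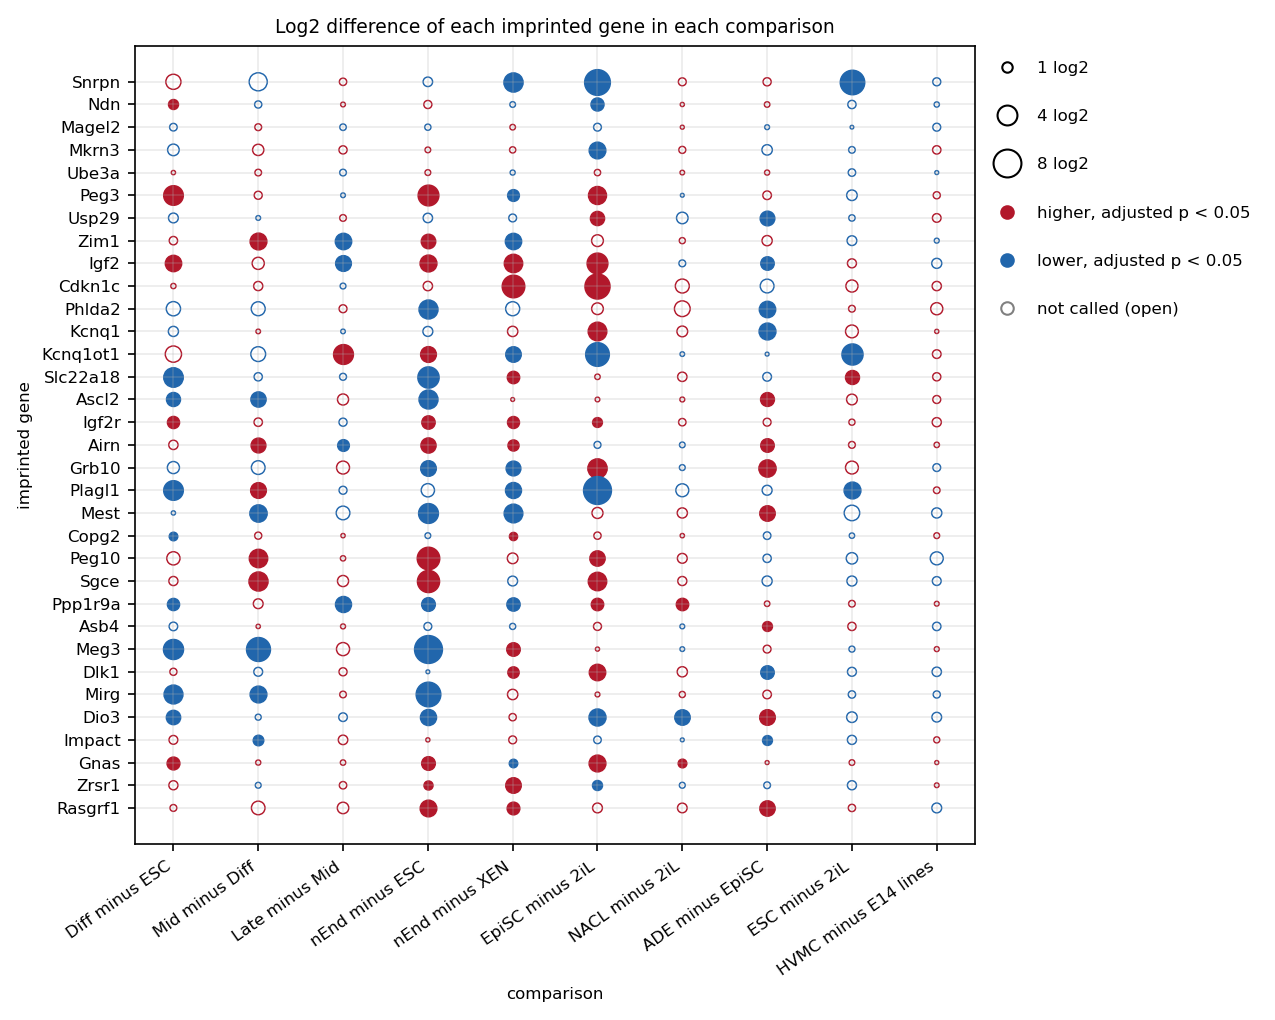
Log2 difference of each of the 33 imprinted genes tested in 10 comparisons; the area of a circle grows with the size of the difference (drawn as 8 where larger), red is higher and blue lower in the first-named group, and filled circles have a limma adjusted p under 0.05. The HVMC column has no filled circle, NACL minus 2iL has 3 and nEnd minus ESC has 20.

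The inductions of endoderm, from naive cells (Diff minus ESC) and from primed cells (ADE minus EpiSC), were compared by the difference of their differences, in which effects common to an array set cancel. It was called for 13 members, 5 higher and 8 lower, beside 36.8% of all genes (21.9% higher and 14.9% lower). The median difference was -0.08 over the 33 members tested and 0.06 over all genes, and the median size, whatever the direction, was 1.69 and 0.77. Meg3 and Mirg differed by -4.58 ± 0.86 (adjusted p = 0.000201) and -4.23 ± 0.69 (adjusted p = 4.39e-05): they fell in Diff and were not called in ADE. Dio3, Ascl2 and Grb10 differed by -4.44 ± 0.78 (adjusted p = 0.000104), -3.79 ± 0.67 (adjusted p = 0.000107) and -4.38 ± 1.36 (adjusted p = 0.014); the first 2 fell in Diff and rose in ADE, and Grb10 rose in ADE and was not called in Diff. Igf2 and Peg3 differed by 4.43 ± 0.87 (adjusted p = 0.000325) and 3.24 ± 0.55 (adjusted p = 7.1e-05), with Igf2 rising in Diff and falling in ADE and Peg3 rising in Diff and not called in ADE. The Igf2 fall in ADE lost its call under 7 of 18 alternatives. The others called were Slc22a18 at -3.17 ± 0.80 (adjusted p = 0.00308), Plagl1 at -2.99 ± 1.16 (adjusted p = 0.0473), Asb4 at -1.52 ± 0.48 (adjusted p = 0.0162), Dlk1 at 2.17 ± 0.74 (adjusted p = 0.0241), Impact at 1.56 ± 0.45 (adjusted p = 0.00899) and Gnas at 1.56 ± 0.27 (adjusted p = 8.25e-05). For Plagl1, by the probe kept, no ADE array and 2 of 3 EpiSC arrays were above background. The ADE minus EpiSC part of the Plagl1 value thus rests on levels at or near background, and its size is uncertain. The durations differ, 7 to 8 days against 4 days, as do the media.

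The 20 factors that keep imprints or set DNA methylation were read as the machinery around these genes. Zfp57, the zinc finger protein that binds methylated imprint control regions, fell by 2.53 ± 0.36 (adjusted p = 5.18e-06) in Diff and fell by 2.73 ± 0.36 (adjusted p = 6.3e-06) in Mid, and its difference between nEnd and ESC was -5.23 ± 0.31 (adjusted p = 2.9e-12). In Diff minus ESC 12 of 20 (60%, beside 42.4% of all genes) were called, 4 higher and 8 lower (median -0.63). Dnmt3l, Dnmt3b and Dnmt3a, which take part in laying down new methylation, rose by 4.37 ± 0.60, 3.14 ± 0.38 and 2.25 ± 0.40. Dnmt3l then fell by 6.66 ± 0.60 (adjusted p = 4.53e-08) in Mid. In nEnd against ESC 16 of 20 (80%, beside 53.3% of all genes) were called, 4 higher and 12 lower (median -0.94), among them Tet1, a methylcytosine oxidase (-4.76 ± 0.34), and Dppa3, which protects methylation in the early embryo (-4.40 ± 0.84, with 3 of 6 nEnd arrays above background). Against XEN 9 of 20 (45%, beside 41.1%) were called, 1 higher and 8 lower, with Zfp445, which works beside Zfp57, higher in nEnd by 6.34 ± 0.45 (adjusted p = 9.96e-11), with 1 of 3 XEN arrays above background.

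In the second array set, EpiSC minus 2iL called 12 of these 20 factors (60%, beside 41.6% of all genes), 2 higher and 10 lower (median -0.54), led by Dppa3 (-6.43 ± 0.97, with 1 of 3 EpiSC arrays above background) and Dnmt3l (-4.09 ± 0.60); Zfp57 fell by 2.09 ± 0.36 (adjusted p = 5.74e-05). ADE minus EpiSC called 12 (60%, beside 37.6%), 7 higher and 5 lower, and NACL minus 2iL called 2 (10%, beside 8.26%), Dppa3 (-3.72 ± 0.91) and Setdb1 (-0.71 ± 0.17). ESC minus 2iL called 3 (15%, beside 10.2%), all lower, namely Dnmt3l, Dnmt3b and Setdb1. Mid minus Diff called 6 (30%, beside 29.2%), all lower, Late minus Mid called 1 (5%, beside 6.85%), Arid4a, lower, and HVMC minus the E14 lines called none by limma.

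A further 41 imprinted genes outside the 38 were listed, of which 33 were tested. Their median size was 0.85 in Diff minus ESC and 0.96 in nEnd minus ESC, beside 1.27 and 1.83 for the members. In Late minus Mid it was 0.32 beside 0.53, and in EpiSC minus 2iL 1.33 beside 1.48. Diff minus ESC called 11 (3 higher, 8 lower), or 33.3% beside 42.4% of all genes, and Mid minus Diff 11 (5 higher, 6 lower), or 33.3% beside 29.2%. Late minus Mid called 5, all lower, or 15.2% beside 6.85%. In nEnd minus ESC 15 were called (6 higher, 9 lower), or 45.5% beside 53.3%, and in nEnd minus XEN 14 (4 higher, 10 lower), or 42.4% beside 41.1%. EpiSC minus 2iL called 20 (12 higher, 8 lower), or 60.6% beside 41.6%, and ADE minus EpiSC 12 (7 higher, 5 lower), or 36.4% beside 37.6%. NACL minus 2iL called Tspan32 alone, lower (3.03% beside 8.26%), and ESC minus 2iL Peg12 and Blcap, lower (6.06% beside 10.2%). Slc38a4, an amino acid transporter of the placenta, was lower in nEnd than in ESC, at -8.99 ± 0.59 (adjusted p = 1.38e-11), with 1 of 6 nEnd arrays above background. Calcr, the calcitonin receptor next to Peg10, rose by 7.11 ± 0.73 (adjusted p = 4.57e-08) in EpiSC against 2iL, with 1 of 3 2iL arrays above background.

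The range of the 9 group means had a median of 4.63 over the 33 members tested and 1.94 over all 16342 genes, as a description with no test. Plagl1, Meg3 and Mest had the widest ranges, 11.46, 11.68 and 10.78, and Magel2, Ube3a and Impact the narrowest, 0.64, 0.87 and 1.35. The low ends of the widest ranges lay at or near background, so these widths are uncertain. Plagl1 was above background on no ADE array, Meg3 on 1 of 3 XEN arrays and Mest on 1 of 3 Late arrays. The median SD between arrays of a group was 0.34 in ESC, 0.62 in Diff and 0.61 in Mid for members, against 0.22, 0.32 and 0.32 for all genes. In XEN it was 0.70 against 0.40, in NACL 0.62 against 0.37 and in 2iL 0.51 against 0.34. In Late it was 0.33 against 0.22, in ADE 0.36 against 0.28 and in EpiSC 0.33 against 0.26. The member with the largest SD was Kcnq1ot1 in ESC and Diff, Grb10 in Mid and XEN, Kcnq1 in Late, Phlda2 in 2iL, Plagl1 in EpiSC, Snrpn in ADE and Peg10 in NACL.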

How the data were processed

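Total RNA of 29 cultures was labelled with Cy3 and hybridised to 1-colour Agilent mouse arrays. The deposited scanner files hold the processed signal as an intensity per spot, already background-subtracted by the authors' Feature Extraction software. Version 9.1 is named per the submitters' processing notes, and the file headers name 11.0.1.1 for 1 array set and 12.0.1.1 for the other. The deposited series matrix holds the authors' own log2 values, with column medians of 5.94 to 5.95; what was done to reach that common level, and its centring, is not given in the sources used here, and it served as an alternative only.

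Control spots and outlier flags were left out, and spots of a probe were averaged. Levels are log2 of the intensity minus log2 of the 75th percentile of the array, which lay between 137 and 323. Probes were named through their accession with the RefSeq table, and 27669 of 55681 had 1 symbol. Of several probes of a gene the one brightest on average over the 29 arrays was kept, and a gene was tested if at least 1 group had it well above background on each array. One limma model (limma 3.58.1, R 4.3.3) of 9 group means over all arrays gave each comparison, with Benjamini-Hochberg adjustment over 16342 genes and a threshold of 0.05. The number of arrays, 3 or 4 a group, limits the precision. In each comparison values are given for members called with no overlap of arrays between the groups, at most 10 a direction, and other called members are counted or named without a value; array levels are given for any member. The members and lists were chosen with earlier results of these data known.

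The alternatives were normexp background correction with an offset of 50 (on the median signal, since the mean signal is not among the columns used), scaling on the median, quantile normalization, no filter or a strict one on dim probes, the mean of all probes, the series matrix, each replicate left out, the replicate number, slide, cell line or scan day as a block, and fits of the compared arrays alone. Same-numbered Mid and Late arrays deviated from their group means with correlations of 0.218, 0.129 and 0.14 over genes. The labels give these numbers to separate differentiations, so they were taken to pair Mid and Late, while other groups shared only a number. The correlations do not single out this pair of groups. Same-numbered ADE and EpiSC arrays had 0.305, -0.124 and 0.315, and Late and ESC arrays 0.251, 0.086 and 0.124. The first and the second Mid and Late pairs also shared a slide and a scan day. Promoter windows were read from RefSeq (GRCm38.p6).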

Additional observations from a re-analysis of the deposited data

Results flagged for a closer look

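In 4 of 66 groups of 4 arrays, 1 array lay far from the other 3, and chance marks about 1 in 20 such groups. Usp29 was at -4.75 on the fourth ADE array, where the others lay between -4.17 and -4.05. Igf2 was at -0.67 on the first ADE array, against -2.38 to -2.14 on the others. Igf2r was at 3.29 on the fourth ADE array, against 3.59 to 3.64. Mkrn3 was at -1.84 on the fourth NACL array, against -0.69 to -0.54.

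The inductions of endoderm differed by their own test, the difference of differences (Diff minus ESC less ADE minus EpiSC), in 13 members. The log2 difference was 4.43 for Igf2, 3.24 for Peg3, 2.17 for Dlk1, 1.56 for Gnas and 1.56 for Impact. It was -4.58 for Meg3, -4.44 for Dio3, -4.38 for Grb10, -4.23 for Mirg, -3.79 for Ascl2, -3.17 for Slc22a18, -2.99 for Plagl1 and -1.52 for Asb4. The Plagl1 call was lost under 12 alternatives, among them leaving out the third EpiSC array (adjusted p = 0.181 by limma). By the probe kept no ADE array was above background for Plagl1, so the size of its difference is uncertain.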

How the results depend on the processing

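Of 97 named differences, 62 kept their call under every alternative run for them and 35 lost it under at least 1. Of 1824 values under alternatives, 1657 kept direction and call, 166 lost the call and 1, Gnas in nEnd minus XEN, turned, to 0.14 with the mean of all probes; the cause was not tested. The counts of members called are given in the order Diff minus ESC, then Mid minus Diff, then Late minus Mid, nEnd minus ESC, nEnd minus XEN, EpiSC minus 2iL, ADE minus EpiSC, ESC minus 2iL and the difference of the inductions. Requiring a probe well above background on all 29 arrays left 15 members to test and gave counts of 8, 4, 2, 9, 9, 8, 4, 1 and 6. Of the 11321 genes then tested, 5246, 3358, 1149, 6385, 5245, 4668, 4536, 1534 and 4313 were called. With only the arrays compared, Mid minus Diff gave 6, Late minus Mid 2 and NACL minus 2iL 1. Late minus Mid gave 3 with median scaling, 2 with the mean of probes and 3 with the series matrix, and NACL minus 2iL gave 1, 1 and 5. With no filter ESC minus 2iL gave 2. Slide 5 alone gave 12 in EpiSC minus 2iL and 4 in ADE minus EpiSC, and slide 6 alone gave 1 in NACL minus 2iL and 7 in ADE minus EpiSC. With each replicate left out in turn the counts ran from 10 to 19 in Diff minus ESC, 8 to 14 in Mid minus Diff, 1 to 6 in Late minus Mid, 17 to 21 in nEnd minus ESC, 14 to 18 in nEnd minus XEN, 16 to 19 in EpiSC minus 2iL, 1 to 3 in NACL minus 2iL, 9 to 14 in ADE minus EpiSC, 2 to 4 in ESC minus 2iL and 11 to 15 in the difference of the inductions; HVMC minus E14 lines gave 0 each time. With the replicate block in the fit of all arrays the counts were 14, 10, 5, 19, 16, 18 and 12 in the first 7 of that order, 4 in NACL minus 2iL, 0 in HVMC minus E14 lines and 13 in the difference of the inductions. With the replicate block and the Mid and Late arrays alone, Late minus Mid gave 0, with adjusted p of 0.0662 for Kcnq1ot1, 0.0777 for Ppp1r9a, 0.0873 for Airn and 0.192 for Igf2. The share of higher calls moved by over 10 points under median scaling in Diff minus ESC (38.5% to 60%), Late minus Mid (20% to 33.3%), nEnd minus XEN (52.6% to 31.2%), NACL minus 2iL (66.7% to 0%) and ESC minus 2iL (25% to 0%), and with normexp in nEnd minus ESC (55% to 44.4%). The replicate block and the slide block in ESC minus 2iL, and slide 6 alone for HVMC, were not run. The scan day block, the first scan day alone, single slides and the replicate block with only the arrays of Mid and Late were chosen after seeing the data.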
